A study of Mus musculus with 6 samples.

Results

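Complex III, cytochrome c and ATP synthase are covered here by 33 of the 23997 gene symbols measured in iWAT, the inguinal subcutaneous white fat of mice. The members were taken by symbol, as every row beginning with Uqc or Atp5 together with Cyc1, Cycs, Bcs1l, Atpaf1, Atpaf2 and Atpif1. They comprise 12 genes of complex III, 1 of cytochrome c and 20 grouped with ATP synthase. Among these 20, Atp5s and Atp5sl were placed by symbol, with no role assigned here. Genes of mitochondrial DNA do not match the symbols taken and are not covered. Usmg5 and 2010107E04Rik, nuclear genes of ATP synthase with other symbols, are not members either and are counted below among the other genes of the pathway. Messenger RNA was sequenced in 6 libraries. The 3 Atf4AKO libraries came from mice with a floxed Atf4 gene and Cre recombinase under the adiponectin promoter, which is active in adipocytes. The 3 Atf4WT libraries came from mice with the same floxed gene and no Cre, so effects of Cre and of the loss of Atf4 cannot be told apart. All mice lived at 22 °C and then spent 12 h at 5 °C, so the libraries hold no warm control. Age is not given in the labels, nor whether a library is 1 animal or a pool, and p-values then measure the spread between these libraries, which may be technical. ATF4 is the transcription factor of the integrated stress response, and the study asks how it acts in adipocytes of mice in the cold.

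Complex III passes electrons from ubiquinol to cytochrome c through the Rieske iron-sulfur protein and cytochrome c1, and moves protons out of the mitochondrial matrix. Cytochrome c carries the electrons on to complex IV. ATP synthase lets the protons back through a membrane part, Fo, whose turning ring of c subunits drives ATP formation in the matrix part, F1. In thermogenic adipocytes the uncoupling protein UCP1 lets protons return without ATP synthesis, and brown fat of the mouse is known for a low content of ATP synthase for its respiratory chain. The nuclear genes of these complexes are known targets of NRF1, GABP, YY1 and ERR alpha, which act with the coactivator PGC-1 alpha.

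Stretches of promoter are shown for some members that hold a match to one of these factors or to the cAMP response element. Cold acts in fat cells through that element. RefSeq promoters (GRCm38.p6, 250 bases before to 50 after the start) were matched for 28 of the 33 members, 33 promoters in all. Capitals mark the match, which for Atp5g2 and Atp5g3 is the motif read on the other strand, and each stretch is written 5′ to 3′ on the strand of the gene, upstream of the start that RefSeq's promoter is built on. In Atp5g2 another NRF1 match, on the gene's own strand, overlaps the marked one and begins 40 bases upstream. The start used for Atp5g3, like those for Atp5j and Atpaf2, lies inside the span annotated for the gene.
Cycs, NRF1 match starting 60 bases upstream, chr6:50566582-50566669, minus strand: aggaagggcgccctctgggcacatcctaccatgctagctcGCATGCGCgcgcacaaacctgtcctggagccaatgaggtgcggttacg
Cycs, cAMP response element match starting 169 bases upstream, chr6:50566691-50566778, minus strand: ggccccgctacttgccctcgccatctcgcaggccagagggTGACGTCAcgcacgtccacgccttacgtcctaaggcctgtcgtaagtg
Uqcrfs1, cAMP response element match starting 29 bases upstream, chr13:30545317-30545385, minus strand: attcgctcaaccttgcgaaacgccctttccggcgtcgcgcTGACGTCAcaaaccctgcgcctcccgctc
Atp5g2, NRF1 match starting 42 bases upstream, chr15:102671048-102671129, minus strand: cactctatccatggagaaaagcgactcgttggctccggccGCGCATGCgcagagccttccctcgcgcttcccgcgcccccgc
Atp5g3, ERR alpha match starting 52 bases upstream, chr2:73911330-73911418, minus strand: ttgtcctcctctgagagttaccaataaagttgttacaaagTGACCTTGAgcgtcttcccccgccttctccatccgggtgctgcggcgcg

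Each motif was searched on both strands. The NRF1 letters GCATGCGC were found in 6 of the 33 promoters (18.2%), those of Cycs, Uqcrc1, Uqcr11, Atp5g2, Atp5k and Atp5l, and in 2.71% of all 32851 promoters. The YY1 letters AAGATGGCG were found in 5 (15.2%), against 1.40% of all promoters, and lay in Atp5j, Atp5j2, Atpaf2 and both promoters of Atp5sl, which overlap and share 1 site. The cAMP response element TGACGTCA was found in 2 (6.06%), against 1.79%. TCAAGGTCA, for ERR alpha, and ACCGGAAG, for GABP, were found in 1 promoter each (3.03%), those of Atp5g3 and Atp5e, against 0.423% and 2.30% of all promoters. The letters TGATGCAA, which ATF4 binds together with a C/EBP factor, were in none of the 33 and in 0.895% of all promoters. Letter matches in this window are a description and not sites of binding, and the shares were not compared at equal base composition.

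Values are FPKM, that is, fragments for each kilobase of transcript in 1e6 mapped fragments, in which levels of different genes can be set side by side. The FPKM of a library summed to between 524158 and 717778, and depth, read from the steps of low values, ran from 0.784 to 1 relative to Atf4WT 1, the deepest library. Absolute depth is unknown. Atf4 was 258, 323 and 317 FPKM in Atf4WT against 152, 140.2 and 114 FPKM in Atf4AKO, with no overlap. The test used below did not call Atf4 itself (log2 change -1.14, SE 0.16, limma adjusted p = 0.490). Adipocyte markers were abundant in all libraries, the 10 genes summing to between 54179 and 95302 FPKM. The 15 skeletal muscle markers summed to between 10.6 and 939 FPKM in Atf4WT and between 9.04 and 9038 FPKM in Atf4AKO, where Atf4AKO 1 (3203 FPKM) and Atf4AKO 2 were high, and Atf4WT 2 held the 939 FPKM. The 10 epithelial markers summed to between 0.741 and 788 FPKM in Atf4WT, the highest in Atf4WT 1, and between 0.970 and 139 FPKM in Atf4AKO, with the milk protein gene Wap listed at 0 in all libraries. Macrophage markers (7 of 8 with a row) summed to between 181 and 424 FPKM in Atf4WT and between 357 and 1774 FPKM in Atf4AKO.

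The members differed more between the Atf4WT libraries than between the genotypes. Atf4WT 1 was the lowest of the 6 libraries in 28 of the 33 members (84.8%), and in 22.9% of the 12818 genes tested. Atf4WT 2 was the highest in 23 (69.7%), and in 12.5% of the genes tested. On the log2(FPKM + 1) scale, relative to the mean of the 6 libraries, the median level of the members was -0.65, 0.37 and 0.04 in Atf4WT 1, 2 and 3, and -0.05, 0.28 and 0.03 in Atf4AKO 1, 2 and 3. The Atf4AKO libraries thus lay between the Atf4WT extremes. In 22 of the 33 members all 3 Atf4AKO values fell inside the range of the Atf4WT values, which was so for 15.9% of the genes tested. The SD of the log2 values was larger in Atf4WT than in Atf4AKO for 31 of 33 members, with medians of 0.53 and 0.19, and for 44.6% of the genes tested, with medians of 0.17 and 0.19.

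**Figure D1:**
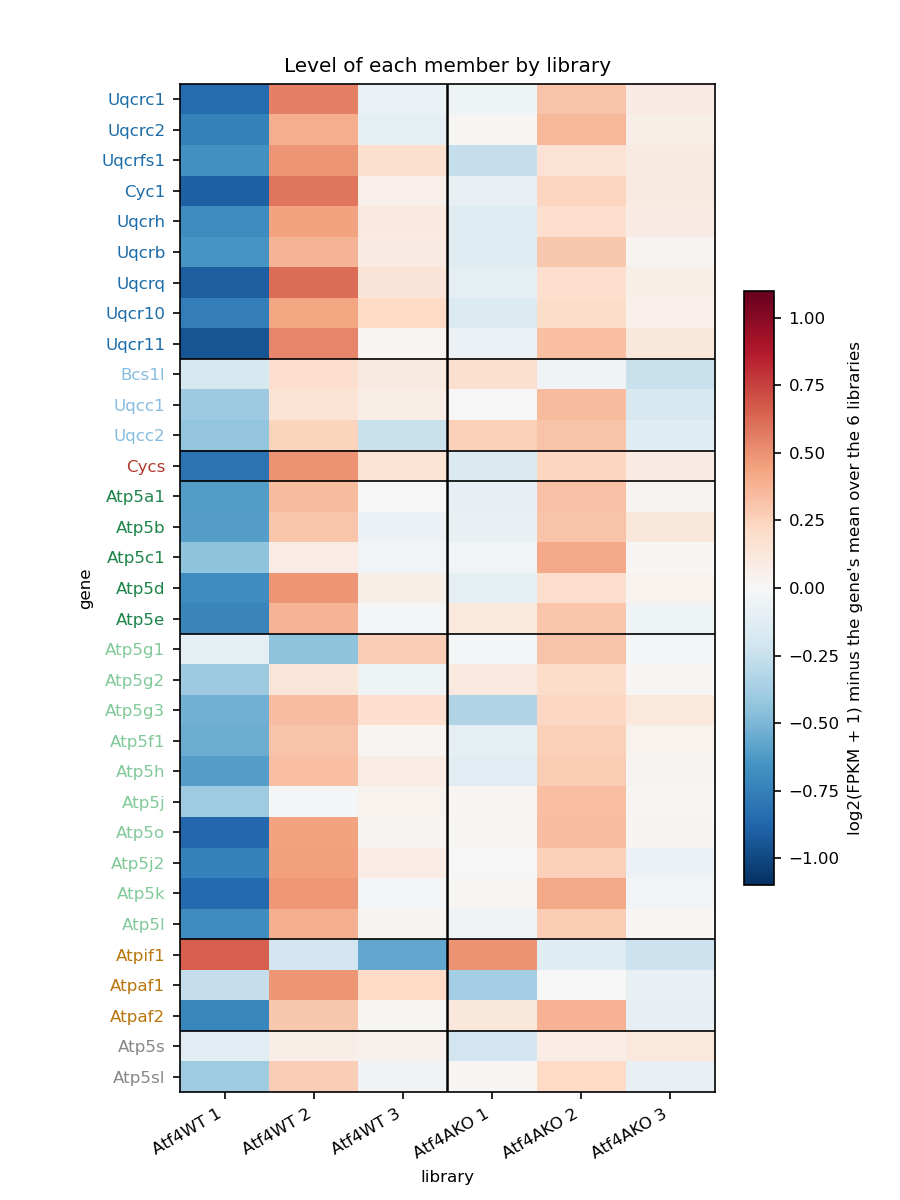
Level of the 33 members (rows, coloured and divided by role) in each of the 6 libraries (columns), as log2(FPKM + 1) minus the mean of the gene over the 6 libraries. Atf4WT 1 is the lowest library for 28 members and Atf4WT 2 the highest for 23, while Atpif1 is highest in Atf4WT 1 and Atp5g1 lowest in Atf4WT 2.

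Thermogenic markers ordered the Atf4WT libraries in the same way. The list was Ucp1, Cidea, Elovl3, Cox8b, Cox7a1, Dio2, Ppargc1a, Otop1 and Kcnk3. Cox8b and Cox7a1 are themselves complex IV subunits, counted again below, and Ppargc1a encodes PGC-1 alpha. The list is thus not separate from the respiratory chain. All 9 of these genes were lowest in Atf4WT 1. Their sum was 243, 3876 and 1166 FPKM in Atf4WT against 1554, 1643 and 1502 FPKM in Atf4AKO. Ucp1 was 15.5, 1370.1 and 211 FPKM in Atf4WT against 456, 497 and 415 FPKM in Atf4AKO. Adipocyte markers were also lowest in Atf4WT 1, in 9 of 10 genes, with a mean level of -0.49 against -0.17 to 0.33 elsewhere, and epithelial markers were highest there, at 3.13. Their part in the level of the members was not tested. In whole tissue, fewer cells of a type and less RNA per cell cannot be told apart. The share of all FPKM taken by the 33 members was 1.71%, 3.005% and 2.44% in Atf4WT and 2.19%, 2.41% and 2.39% in Atf4AKO.

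**Figure D2:**
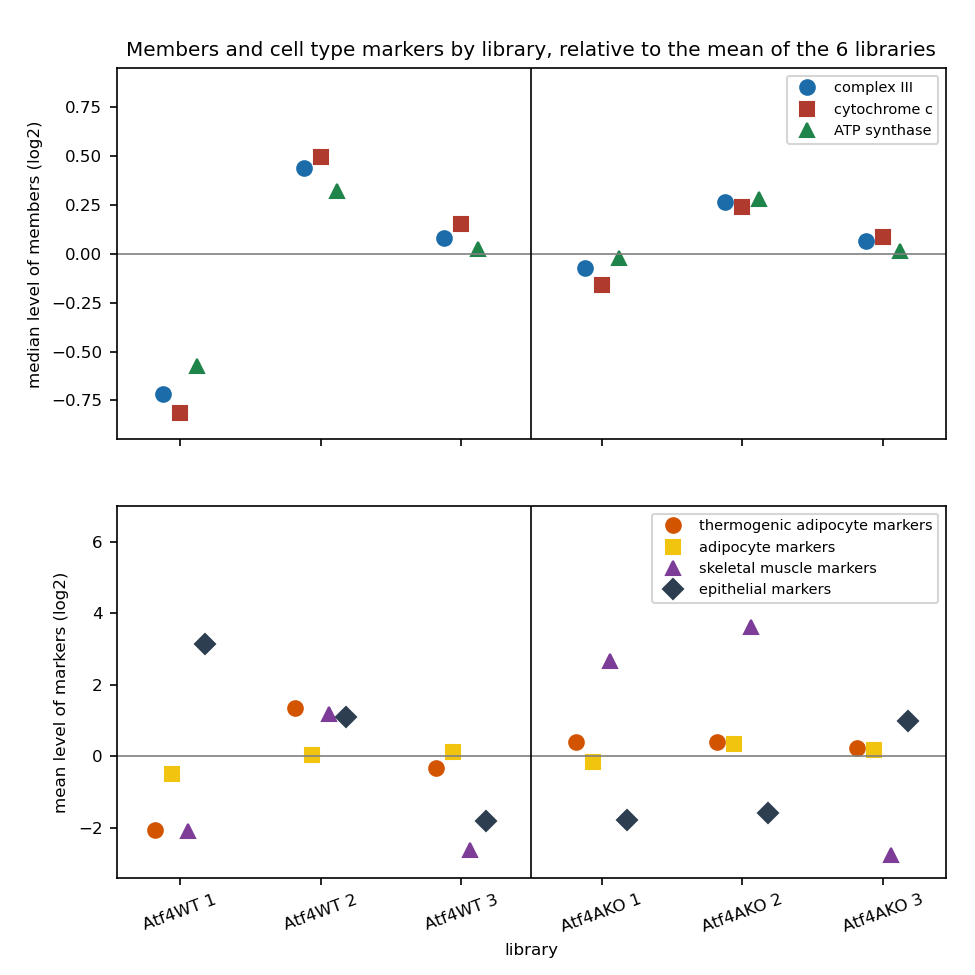
Upper panel: median level of the members of complex III, cytochrome c and ATP synthase in each library. Lower panel: mean level of 4 marker lists in the same libraries, both in log2(FPKM + 1) relative to the mean of the 6 libraries. Members and thermogenic markers are lowest in Atf4WT 1 and highest in Atf4WT 2, whereas muscle markers are highest in Atf4AKO 2 (3.63).

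The 9 complex III subunits moved as a block. Every one was lowest in Atf4WT 1 and highest in Atf4WT 2, an order found in 5.42% of the genes tested, and the ratio of these libraries ran from 2.03 for Uqcrb to 2.87 for Uqcrq. Uqcrc1, core protein of the matrix arm, was 126, 335 and 216 FPKM in Atf4WT against 219.8, 283 and 241 FPKM in Atf4AKO. Uqcrc2, its partner core protein, was 136, 301 and 212 FPKM in Atf4WT against 230.4, 294 and 239 FPKM in Atf4AKO. In both genes all Atf4AKO libraries lay inside the Atf4WT range. The log2 change, Atf4AKO minus Atf4WT, was 0.24 (SE 0.34, limma adjusted p = 0.770) for Uqcrc1 and 0.29 (SE 0.29, limma adjusted p = 0.664) for Uqcrc2.

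The redox subunits among the members showed the same order of libraries. Uqcrfs1, the Rieske iron-sulfur protein that takes electrons from ubiquinol, was 251, 559 and 450.2 FPKM in Atf4WT against 333, 446 and 426 FPKM in Atf4AKO. Cyc1, cytochrome c1, which hands the electrons to cytochrome c, was 139.7, 392.2 and 271 FPKM in Atf4WT against 247, 308 and 279.7 FPKM in Atf4AKO. Neither differed between genotypes beyond the spread of the libraries. The log2 change was -2.7e-05 (SE 0.31) for Uqcrfs1, with a 95% interval from -0.74 to 0.74, and 0.17 (SE 0.36) for Cyc1, from -0.70 to 1.04.

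Among the complex III subunits covered here, the small ones had the most abundant transcripts. Uqcrh, the acidic hinge protein beside cytochrome c1, had the highest mean, 1090 ± 401 FPKM in Atf4WT against 1109 ± 121 FPKM in Atf4AKO (means with their SD, n = 3 each, given in the same order in later pairs). Uqcr11 was 377, 1060.3 and 741 FPKM in Atf4WT against 697, 918 and 793 FPKM in Atf4AKO, and its log2 change of 0.26 (SE 0.37) had a limma adjusted p of 0.769. Uqcrb, a subunit that contacts the ubiquinone-binding region, was 769 ± 257 and 812 ± 124 FPKM. Uqcrq was 707 ± 336 and 693 ± 70.4 FPKM, and Uqcr10 was 701 ± 269 and 696 ± 85.0 FPKM. RefSeq lists pseudogenes named for Uqcrh, Cycs, Atp5k and Atp5l, whose FPKM are less certain because it is not given how shared reads were assigned.

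Assembly factors of complex III were much lower and followed the subunits less closely. Bcs1l, which brings the Rieske protein into the complex, was 2.51, 3.51 and 3.26 FPKM in Atf4WT against 3.50, 2.87 and 2.36 FPKM in Atf4AKO, with Atf4AKO 3 the lowest. Uqcc2, needed for the synthesis of cytochrome b, was 51.3, 82.8 and 58.6 FPKM in Atf4WT against 84.1, 86.8 and 63.4 FPKM in Atf4AKO. Uqcc2 had the smallest p of the complex, with Atf4AKO 3 between the Atf4WT values and Atf4AKO 1 and 2 above them. The change on the log2 scale was 0.29 (SE 0.21, 95% interval -0.22 to 0.81, limma adjusted p = 0.587). Uqcc1, which acts with Uqcc2, was 11.5 ± 2.41 and 12.5 ± 2.52 FPKM.

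Cycs, the somatic cytochrome c, followed the complex III subunits. It was 155, 386 and 303 FPKM in Atf4WT against 244, 322 and 289.8 FPKM in Atf4AKO, with every Atf4AKO library inside the Atf4WT range. The log2 change of Cycs was 0.11 (SE 0.34, 95% interval -0.70 to 0.92, limma adjusted p = 0.894). The ratio of Cycs to Cyc1 was nearly constant, from 0.983 to 1.12 over the 6 libraries (1.07 ± 0.0746 in Atf4WT and 1.02 ± 0.0312 in Atf4AKO, exact two-sided permutation p = 0.4). Cyct, the testis cytochrome c, was listed at 0 in every library. Cycs lies on the minus strand of chromosome 6 (GRCm38, 50562563 to 50566569).

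In F1, the catalytic head of ATP synthase, all 5 subunits were lowest in Atf4WT 1. Atp5b, the catalytic beta subunit, was 870.0, 1638 and 1269 FPKM in Atf4WT against 1254, 1647 and 1445 FPKM in Atf4AKO, the highest mean of all 33 members. Atp5a1, the alpha subunit, was 445, 867 and 677 FPKM in Atf4WT against 639, 850.1 and 696 FPKM in Atf4AKO. The ratio of Atp5b to Atp5a1 stayed between 1.87 and 2.08 in the 6 libraries, although Atp5a1 itself was 1.95 times as high in Atf4WT 2 as in Atf4WT 1. The log2 change was 0.24 (SE 0.26, limma adjusted p = 0.691) for Atp5b and 0.18 (SE 0.26, limma adjusted p = 0.776) for Atp5a1.

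Atp5c1, the gamma subunit that forms the rotating shaft, was 283, 407 and 376 FPKM in Atf4WT against 376, 513 and 387 FPKM in Atf4AKO. Atf4AKO 2 was the only library above Atf4WT 2, and the groups overlapped. Its log2 change of 0.26 (SE 0.20, 95% interval -0.21 to 0.73) had a limma adjusted p of 0.596. Atp5d, the delta subunit, was 337 ± 129 and 342 ± 35.7 FPKM, and Atp5e, the epsilon subunit, was 344 ± 124 and 390.1 ± 47.9 FPKM.

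The c subunit of the Fo ring is encoded by 3 genes whose mature proteins are the same, and their transcripts did not move alike. Atp5g3 was 759, 1385 and 1246 FPKM in Atf4WT against 870.2, 1283 and 1187 FPKM in Atf4AKO, and held between 69.7% and 78.8% of the c-subunit FPKM in each library. Atp5g2 was 230.2, 335 and 292 FPKM in Atf4WT against 328, 349 and 306 FPKM in Atf4AKO, a share of 18.3% to 26.3%. Both were lowest in Atf4WT 1, like most members. Atp5g1, the form known in mice to limit the amount of ATP synthase in brown fat, went against that order. It was 47.6, 37.3 and 61.8 FPKM in Atf4WT against 50.6, 63.6 and 50.2 FPKM in Atf4AKO, lowest in Atf4WT 2. Ucp1 was highest in Atf4WT 2 (1370.1 FPKM) and next in Atf4AKO 2 (497 FPKM), where Atp5g1 was highest. The sum of the 3 c-subunit genes was highest in Atf4WT 2 (1757 FPKM). A relation of Atp5g1 to Ucp1 was not tested.

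None of the c-subunit genes separated the genotypes. The share of Atp5g1 was 4.59%, 2.12% and 3.86% in Atf4WT and 4.05%, 3.75% and 3.25% in Atf4AKO, with all Atf4AKO libraries inside the Atf4WT range (exact two-sided permutation p = 0.9, and 1 after Benjamini-Hochberg adjustment over 3 ratios). The log2 changes were 0.18 (SE 0.20) for Atp5g1, 0.21 (SE 0.17) for Atp5g2 and 0.01 (SE 0.28) for Atp5g3, with limma adjusted p of 0.704, 0.601 and 0.994. The 3 genes together were 1465 ± 379 FPKM in Atf4WT against 1496 ± 227 FPKM in Atf4AKO. Per Atp5b transcript, their sum was 1.19, 1.07 and 1.26 in Atf4WT and 0.996, 1.03 and 1.07 in Atf4AKO. Every Atf4AKO library lay below every Atf4WT library, with the nearest pair at 1.073 and 1.068. That ratio is one of several looked at without a test, and no share of ratios with such a separation was taken. Of the single genes tested, 8.34% lay wholly below. All 3 lie on the minus strand (GRCm38), Atp5g1 on chromosome 11 (96072793 to 96075694), Atp5g2 on chromosome 15 (102662868 to 102671047) and Atp5g3 on chromosome 2 (73908447 to 73912464).

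**Figure D3:**
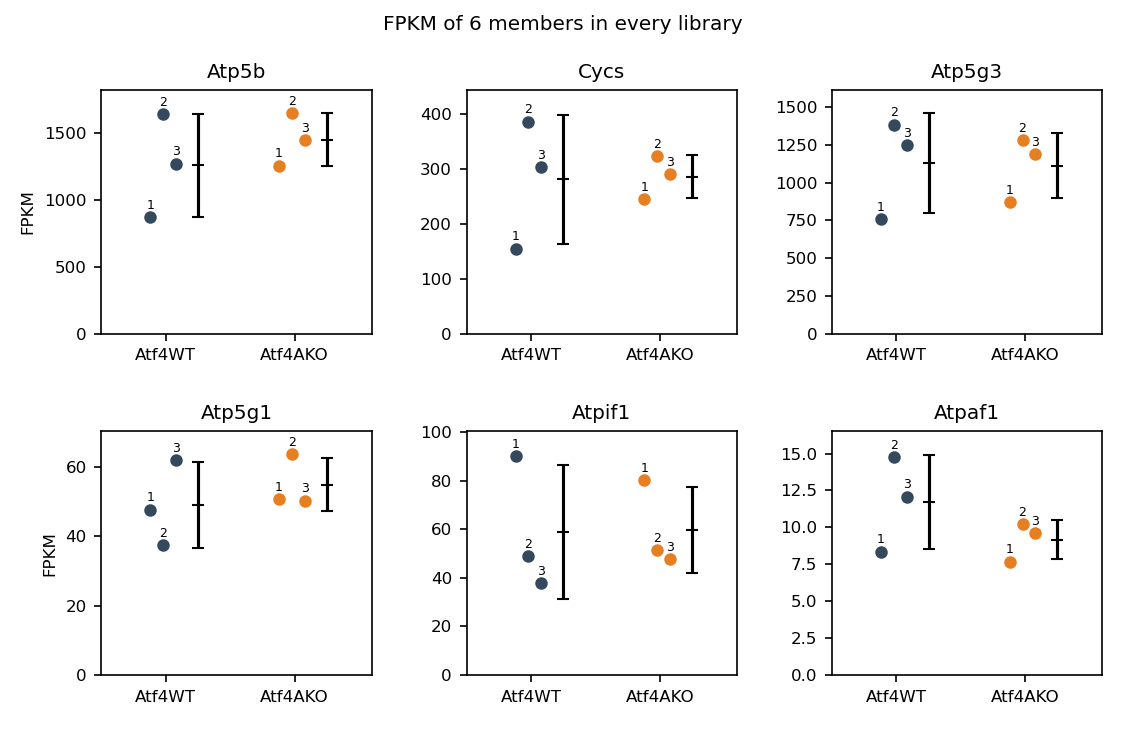
FPKM of 6 members in every library, with the replicate number beside each point and the mean ± SD at its right. Atp5b, Cycs and Atp5g3 are lowest in Atf4WT 1, Atp5g1 is lowest in Atf4WT 2, Atpif1 is highest in Atf4WT 1 (90.0 FPKM), and Atpaf1 is lowest in Atf4AKO 1 (7.68 FPKM).

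The peripheral stalk holds F1 still against the turning ring. Atp5j, its coupling factor F6, was 195, 252 and 262 FPKM in Atf4WT against 259, 322 and 258 FPKM in Atf4AKO, the smallest p of all 33 members. Atf4AKO 2 stood above the other 5 libraries and Atf4WT 1 below them. The log2 change was 0.24 (SE 0.17, 95% interval -0.16 to 0.65, limma adjusted p = 0.570). Atp5f1, the b subunit, was 316 ± 90.5 and 338 ± 43.3 FPKM, and Atp5h, the d subunit, was 603 ± 185 and 641 ± 90.7 FPKM. Atp5o, which caps F1 and confers oligomycin sensitivity, was 435 ± 181 and 489.6 ± 65.2 FPKM.

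The membrane subunits e, f and g, of which e and g join ATP synthase into dimers, differed between Atf4WT 1 and 2 by more than the median member (2.03). The ratio of Atf4WT 2 to Atf4WT 1 was 2.53 for Atp5k (subunit e), 2.30 for Atp5j2 (subunit f) and 2.11 for Atp5l (subunit g). Atp5k was 694 ± 299 FPKM in Atf4WT against 786 ± 139 FPKM in Atf4AKO. Atp5j2 was 679 ± 262 and 709.97 ± 87.0 FPKM, and Atp5l was 1208 ± 425 and 1307 ± 159 FPKM. In all 3 the groups overlapped.

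Atpif1 encodes the inhibitory factor that stops ATP synthase from running backwards and consuming ATP. Its library order was unlike that of the subunits. It was 90.0, 48.9 and 37.8 FPKM in Atf4WT against 80.1, 51.5 and 47.8 FPKM in Atf4AKO, so the highest library of each genotype was replicate 1 and the groups overlapped. Relative to Atp5b the level reached 0.103 in Atf4WT 1 and 0.0639 in Atf4AKO 1 but only 0.0298 to 0.0331 in the other 4 libraries. The ratio was 0.0544 ± 0.0425 in Atf4WT and 0.0427 ± 0.0183 in Atf4AKO (exact two-sided permutation p = 1). The log2 change of Atpif1 was 0.08 (SE 0.35, limma adjusted p = 0.928), and it was 0.43 without Atf4WT 1 and -0.19 without Atf4WT 3. The gene lies on the minus strand of chromosome 4 (GRCm38, 132530555 to 132535450).

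Atpaf1 and Atpaf2 encode chaperones that bind the beta and the alpha subunit while F1 is built. Atpaf1 was 8.35, 14.7 and 12.1 FPKM in Atf4WT against 7.68, 10.2 and 9.60 FPKM in Atf4AKO. It had the most negative log2 change of the members, -0.30 (SE 0.21, 95% interval -0.81 to 0.22, limma adjusted p = 0.580), and Atf4WT 1 lay below Atf4AKO 2 and 3. Atpaf2 was 17.0, 35.4 and 28.9 FPKM in Atf4WT against 31.3, 37.8 and 26.9 FPKM in Atf4AKO, and its log2 change of 0.28 (SE 0.28) had a limma adjusted p of 0.666. The remaining pair was matched by symbol and is now named for assembly of the membrane arm of complex I (Dmac2l and Dmac2 in RefSeq). Atp5s was 5.80 ± 0.462 and 5.80 ± 0.834 FPKM, and Atp5sl was 15.9 ± 3.86 and 16.9 ± 1.90 FPKM.

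Between genotypes, no member passed the test. All 33 were tested, and limma called 0 of them at an adjusted p under 0.05, with adjusted p from 0.570 to 1.00, where it called 2 of the 12818 genes (0.0156%). None had an unadjusted p under 0.05, against 9.95% of the genes tested. In none did all Atf4AKO libraries lie above or all lie below the Atf4WT libraries, against 8.21% and 8.34% of the genes tested. The smallest exact two-sided permutation p of a member was 0.2, in a design that cannot go below 0.1. Every 95% interval of a log2 change spanned 0, the widest reach being 1.15 upward and -0.81 downward, so rises of that size and falls of that size in single members were not excluded by their own intervals.

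The sign of the change leaned upward and rested on Atf4WT 1. The log2 change was positive in 29 of 33 members with a median of 0.14, and in 6487 of the 12818 genes tested with a median of 0.00464. It was positive in 10 of 12 complex III genes (median 0.12), in Cycs and in 18 of the 20 genes grouped with ATP synthase (median 0.17). In Uqcrq, Uqcr10 and Atp5g3 the change was positive although mean FPKM was lower in Atf4AKO. Without Atf4WT 1 it was positive in 6 of 33 members with a median of -0.11, and without Atf4WT 2 in 31 with a median of 0.35. With libraries rescaled to equal sums it was positive in 16 and negative in 17, but this scaling moved the median of all genes to -0.13, and 28 of 33 members lay above that median. Without Atf4AKO 1 and 2, the libraries with most muscle marker RNA, 28 of 33 were positive with a median of 0.10. Leaving out Atf4WT 2 as well, the third library with muscle markers, gave 28 of 33 and a median of 0.31. Both rest on Atf4AKO 3 alone, which is assumed to vary like Atf4WT.

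**Figure D4:**
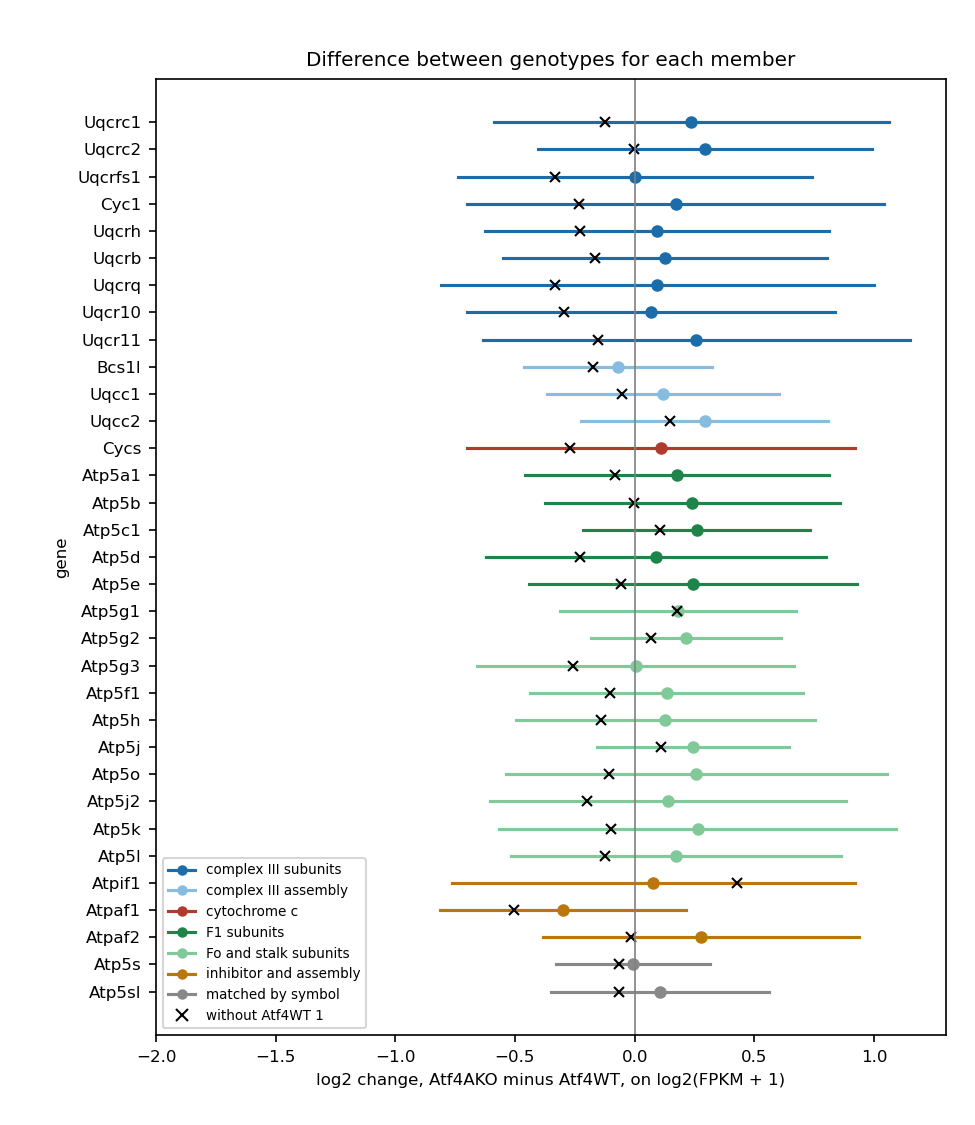
Log2 change (Atf4AKO minus Atf4WT, on log2(FPKM + 1)) of each member with its 95% interval from limma (points and lines, coloured by role), and the change without Atf4WT 1 (crosses). All intervals span 0, and 27 of the 33 crosses lie below 0.

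Set against the median level of the 33 members in each library, Atpaf1, already the member of most negative change, was lower in Atf4AKO without overlap. This comparison was chosen after the values were seen. The median level of the 33 members was subtracted from every gene in each library. Atpaf1 was then at 0.39, 0.12 and 0.19 in Atf4WT and at -0.32, -0.28 and -0.11 in Atf4AKO (log2, relative to its mean), and no other member lay wholly below, which 1.83% of the genes tested did. Per Atp5b transcript, Atpaf1 was 0.00937 ± 0.000323 in Atf4WT and 0.00632 ± 0.000282 in Atf4AKO. This ratio too is one of several looked at without a test, and it concerns a member picked as the most negative. Uqcrc2 was the 1 member whose Atf4AKO libraries all lay above, as did 0.835% of the genes tested. That separation of Uqcrc2 was lost without Atf4AKO 1. A limma fit of the relative levels called 0 of the 33 members at an adjusted p under 0.05. The subtraction adds the members' spread between libraries to every other gene, which bears on that fit and on the shares of genes given here. The relative log2 change was -0.47 (SE 0.36) for Atpaf1 and 0.13 (SE 0.25) for Uqcrc2. Leaving out any 1 library kept the relative change of Atpaf1 between -0.54 and -0.38. Its SE in those fits ran from 0.24 to 0.52, and its unadjusted limma p from 0.14 to 0.39. Relative levels also set apart Atpif1, at 1.31 in Atf4WT 1, and Atp5g1, at -0.81 in Atf4WT 2.

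Complexes I and IV stand before and after complex III and cytochrome c in the respiratory chain, and none of their subunits passed the test. Of 37 complex I subunits 36 were lowest in Atf4WT 1 and 34 had a positive log2 change (median 0.19). Of 16 tested complex IV subunits 13 were lowest there and 14 were positive (median 0.16). The 46 other symbols listed for the pathway (partners of ATP synthase, ubiquinone synthesis, complex II and regulators) had 44 rows, of which 43 were tested. The symbols without a row, Coq8a and Fmc1, are other names of Adck3 and 1110001J03Rik, which were also listed and had rows. In that list 31 were positive and 12 negative with a median of 0.09, 34 were lowest in Atf4WT 1, and limma called 0.

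The genes of smallest p in that list were the factor gene Yy1, the coactivator gene Ppargc1a and Slc25a4, the muscle and heart form of the ADP/ATP carrier. Yy1 was 22.4, 18.5 and 22.4 FPKM in Atf4WT against 15.4, 15.4 and 17.2 FPKM in Atf4AKO, with no overlap between groups (log2 change -0.38, SE 0.12, limma adjusted p = 0.50). Ppargc1a was 3.78, 8.61 and 4.95 FPKM in Atf4WT against 14.9, 22.6 and 6.27 FPKM in Atf4AKO, where Atf4AKO 1 and 2 lay above every other library and Atf4AKO 3 did not (log2 change 1.11, SE 0.47, limma adjusted p = 0.50). Slc25a4 was 129.9, 229 and 165 FPKM in Atf4WT against 225, 346 and 186 FPKM in Atf4AKO. The log2 change of 0.52 (SE 0.29) had a limma adjusted p of 0.537. The muscle markers were also highest in Atf4AKO 2 and next in Atf4AKO 1, and their part in Ppargc1a and Slc25a4 was not tested. Nrf1, Gabpa and Esrra, which encode the other factors searched for in the promoters and were named after their values were seen, had log2 changes of -0.08, 0.23 and -0.18, with overlap between groups.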

How the data were processed

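The authors deposited 1 table of FPKM per gene symbol and library. Per the labels' protocols, RNA was extracted with TRIzol and libraries were made with an Illumina TruSeq stranded mRNA kit. The genome build was mm10, per the submitters' processing notes. Which aligner, quantifier and annotation were used is not given in the sources used here, nor is strand-specific counting, so reads of antisense and overlapping genes may be mixed. Groups and replicate numbers come from the sample titles, and columns were matched by the sample descriptions.

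Members and lists were chosen with earlier results of these data known. Values were analysed as log2(FPKM + 1), which understates changes of low genes. Genes averaging under 0.5 FPKM across the 6 libraries were left out, which kept 12818. The whole table was fitted with limma 3.58.1 in R 4.3.3 (lmFit, eBayes with trend, no covariate), with Benjamini-Hochberg adjustment over all tested genes and a threshold of 0.05. The fit was tested on simulated data, in which genes varied independently and the planted changes were larger than those estimated for the members. That simulation gives no measure of power for the members. Ratios of genes were compared by exact two-sided permutation. Relative depth came from values under 0.15 FPKM, which move in steps of whole reads. Because depth is unknown in reads, no counting interval is given. Members given in every library are those of main role and the 4 of smallest p in complex III and in ATP synthase.

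Alternatives covered the pseudocount, the filter, scaling, the trend, the replicate number as a block and libraries left out. The comparison relative to the members' level was added after the values were seen. Promoters and gene positions are from RefSeq (GRCm38.p6), the same assembly as mm10. No promoter was used for Uqcrc2, Cyc1, Uqcrb, Uqcrq and Atp5a1.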

Additional observations from a re-analysis of the deposited data

How the results depend on the processing

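The count of members passing was 0 under every alternative run, including the fit with the replicate number as a block (replicate block: 0 members, 0 genes in all). Whether replicate numbers pair the libraries was left undecided. Deviations of same-numbered libraries correlated at 0.082, 0.404 and 0.069 over 12818 genes. The 0.404 of replicate 2 was the highest of all pairs, but Atf4WT 1 correlated best with Atf4AKO 3 (0.187). Leaving out 1 library at a time moved the median log2 change of all members from -0.11 to 0.35, of complex III from -0.17 to 0.39, of Cycs from -0.27 to 0.39 and of ATP synthase from -0.07 to 0.35. Equal sums gave medians of -0.01, -0.02, -0.04 and 0.02. The lowest of each range came without Atf4WT 1 and the highest without Atf4WT 2, and the cause was not tested. Single members turned sign in the same way, from -0.13 to 0.57 for Uqcrc1, -0.0017 to 0.57 for Uqcrc2, -0.33 to 0.24 for Uqcrfs1, -0.23 to 0.51 for Cyc1, -0.27 to 0.39 for Cycs, -0.084 to 0.40 for Atp5a1, -0.0020 to 0.45 for Atp5b, -0.26 to 0.17 for Atp5g3, -0.013 to 0.49 for Atpaf2 and -0.15 to 0.59 for Uqcr11. Atpif1 ran from -0.19 without Atf4WT 3 to 0.43 without Atf4WT 1, and Bcs1l from -0.17 without Atf4AKO 1 to 0.036 without Atf4AKO 3. The difference in the Atp5g1 share ran from -0.542 to 0.692 percentage points and that in the Atpif1 to Atp5b ratio from -0.0239 to 0.0129. Signs also turned with equal sums for Cycs (-0.039), Atp5g3 (-0.15) and Atpif1 (-0.071), with centring on the median for Atp5g3 (-0.0046), and with pseudocounts of 0.5 and 0.1 for Uqcrfs1 (6.8e-05 and 0.00015). Without Atf4AKO 1 and 2 together, Uqcrfs1 was 0.096 and Atpif1 -0.20, and with Atf4WT 1, Atf4WT 3 and Atf4AKO 3 only, they were 0.34 and -0.29 and Atp5g1 was -0.11. The change of Atpaf1 was negative in every alternative, at -0.13 without Atf4WT 2, -0.51 without Atf4WT 1, -0.45 with equal sums and -0.06 with those 3 libraries only. With a minimum mean of 5 FPKM Bcs1l was not tested. Precision was limited by 3 libraries a group and by an unknown depth.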
